A study of Mus musculus with 4 samples.

Results

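AMPA and NMDA receptors are the ion channels that glutamate, the main excitatory transmitter of the brain, opens at synapses. The genes described here are the 10 that encode their subunits GRIA1, GRIA2, GRIA3, GRIA4, GRIN1, GRIN2A, GRIN2B, GRIN2C, GRIN2D and GRIN3A, taken by gene symbol alone out of 30854 symbols on the array. They had 24 of the 45281 probes, and each probe is reported on its own. The study asked which genes differ between the anterior and the posterior part of the developing mouse cerebellum. Total RNA came from untreated Swiss mice at postnatal day 7 (PN7), with 2 samples of the anterior cerebellar lobe and 2 of the posterior cerebellar lobe, and 1 Illumina MouseWG-6 v2.0 array was used for each sample. The labels do not say whether the 2 replicates of a lobe came from separate animals or from pools of animals, so p-values measure only the spread between these samples.

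AMPA receptors are tetramers of GRIA subunits and carry the fast part of excitatory transmission. NMDA receptors combine the obligatory GRIN1 with GRIN2 or GRIN3 subunits, need a co-agonist such as glycine besides glutamate, are blocked by magnesium at rest and let calcium in when they open. In the cerebellum these receptors act at the synapses of mossy fibres on granule neurons and of parallel and climbing fibres on Purkinje cells, Bergmann glia carry AMPA receptors too, and granule neurons exchange GRIN2B for GRIN2A and GRIN2C as they mature.

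A probe on this array is carried by many beads, and its signal is the mean brightness of those beads. The median number of beads per probe was 40 on the replicate 1 arrays and 42 on the replicate 2 arrays. The array also carries negative control probes, and a probe counted as detected where fewer than 0.05 of those controls matched or exceeded its brightness (its detection p-value), which held for 46.5% to 47.6% of all probes per array. Signals are given as log2 of the quantile normalized intensity, and differences as posterior minus anterior on that scale. A probe entered the limma fit if at least 2 arrays detected it, and adjusted p-values are Benjamini-Hochberg values over the 21726 probes that did. Precision is limited by the small number of arrays, since exact permutation (two-sided) of 2 arrays against 2 has p = 0.33 as its smallest value.

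In both lobes the array of replicate 1 differed from that of replicate 2 in XIST and TTR. XIST, the RNA that silences an X chromosome in female cells, had a log2 signal of 12.58 and 12.49 on the anterior and posterior replicate 1 arrays and of 6.51 and 6.64 on the replicate 2 arrays with the probe ILMN_1224091. EIF2S3Y, a gene of the Y chromosome, had 5.87 and 6.14 on the replicate 1 arrays and 9.60 and 10.02 on the replicate 2 arrays with the probe ILMN_1241001, and DDX3Y, another, had 9.43 and 9.61 against 12.07 and 12.11 with ILMN_2899599. The replicates of a lobe were thus not repeats of the same RNA, and their spread holds a difference between animals or pools. TTR, the main transcript of the choroid plexus, had 9.10 and 8.37 on the replicate 1 arrays and 13.34 and 11.85 on the replicate 2 arrays. Each subunit is therefore given on every array before any mean.

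Of the 10 subunit genes 8 had a tested probe, with 16 tested probes in all, 12 of them for AMPA and 4 for NMDA subunits. The study called a gene different between lobes if it changed by more than 1.2-fold at a p under 0.05, taken here as unadjusted and from limma, and 1 of these 8 genes passed that criterion, GRIN2C, which was higher in the posterior lobe and not detected on 1 of the anterior arrays. Over all 15615 tested genes the same criterion took 10.1%, with 6.05% lower and 4.10% higher in the posterior lobe. By probes it took 1 of 16 subunit probes and 8.29% of all tested probes. With the p of the methods' t-test, which the study names for comparing groups, it took none of the 16 and 3.41% of all tested probes. No subunit probe passed an adjusted p of 0.05 by limma, against 0.106% of all tested probes, and 2 of 16 had an unadjusted p under 0.05, close to the 10.1% of all tested probes. The median difference was -0.16 over the 16 subunit probes and 0.0023 over all tested probes, and 13 of the 16 were below 0, against 49.4% of all tested probes. Both posterior arrays lay below both anterior arrays for 9 of the 16, against 21.5% of all tested probes, and above them for 1, against 21.1%. Several of these probes target the same gene, so they are not separate observations. In bulk samples such as these, fewer cells of a type and less RNA per cell cannot be told apart.

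GRIA1 encodes an AMPA subunit whose entry into synapses depends on activity, and in the cerebellum it is well known from Bergmann glia. Its probe ILMN_1221295 had a log2 signal of 12.89 on the array of anterior replicate 1, 12.98 on anterior replicate 2, and 12.76 on both posterior arrays. The posterior arrays were both below the anterior ones and nearly equal to each other. The anterior mean was 12.94 ± 0.065 (SD, n = 2 arrays) and the posterior mean 12.76 ± 0.0025, and the difference of -0.17 (standard error 0.07, 95% interval -0.34 to -0.01, adjusted p = 0.462) is 1.13-fold. This probe was 1 of the 2 with an unadjusted p under 0.05, at a fold change below 1.2. Its limma p was 0.215 without normalization, 0.0782 with a shift to a common 75th percentile and 0.105 with no intensity trend. With neqc background correction it was 0.0389, and with cyclic loess 0.0309.

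The other 3 probes of GRIA1 had a wider gap between the anterior arrays. ILMN_1248802 had a log2 signal of 11.17 and 11.53 on anterior replicates 1 and 2 and of 11.09 and 10.91 on posterior replicates 1 and 2. ILMN_2648006 had 10.11 and 10.44 in the anterior and 10.03 and 9.95 in the posterior lobe. ILMN_2648012 had 10.30 and 10.62 in the anterior and 10.26 and 10.04 in the posterior lobe. In each of the 3 anterior replicate 2 was the highest array and posterior replicate 2 the lowest, and the replicate 1 arrays of both lobes were close together. The differences were -0.35 (standard error 0.14, 95% interval -0.70 to 0.00, adjusted p = 0.498), -0.28 (standard error 0.14, adjusted p = 0.549) and -0.32 (standard error 0.14, adjusted p = 0.535), or 1.27-fold, 1.22-fold and 1.24-fold.

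In 3 of the 4 probes the size of the GRIA1 difference depended on single arrays. Without anterior replicate 2 the differences of the 4 probes ran from -0.17 to -0.12, and without anterior replicate 1 they ran from -0.53 to -0.22, with 3 of the 4 past an adjusted p of 0.05 and the lowest at 0.00672. In that refit 12.0% of all tested probes passed the adjusted p, against 0.106% with all arrays, and the lone anterior array is assumed to vary like the posterior pair. Leaving out posterior replicate 2 brought ILMN_2648012 to -0.20 and ILMN_1248802 to -0.25. The sign of all 4 GRIA1 differences was the same in 8 refits, 4 with another normalization or background correction and 4 without an array. In the 4 without an array this was nearly fixed in advance, since both posterior arrays lay below both anterior arrays in each probe.

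Of the probes of other genes, those with the pattern nearest to GRIA1 ILMN_1221295 over the 4 arrays were LOC381355 ILMN_1245296, CAPZB ILMN_3031009, which encodes an actin capping protein, and ACY1 ILMN_2945472, which encodes an aminoacylase. Their root mean square differences from it, after each probe was centred on its own mean, were 0.00424, 0.00738 and 0.00748 on the log2 scale. A distance of at most 0.1 was reached by 6292 of the 21722 tested probes of other genes, 29.0%. A probe with no change over the arrays also lies within this limit. The count therefore does not tell how many probes share the pattern.

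GRIA2 encodes the subunit whose RNA is edited so that the receptors holding it let little calcium through. Its probe ILMN_2680737 had a log2 signal of 13.87 and 13.95 on anterior replicates 1 and 2 and of 13.71 and 13.99 on posterior replicates 1 and 2. Its probe ILMN_3122922 had 12.38 and 12.50 in the anterior and 12.29 and 12.37 in the posterior lobe. Its probe ILMN_1222167 had 10.64 and 10.22 in the anterior and 10.46 and 10.41 in the posterior lobe. The lobes overlapped for ILMN_2680737 and ILMN_1222167, and for ILMN_3122922 posterior replicate 2 lay just under anterior replicate 1.

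The differences of GRIA2 were -0.060 (95% interval -0.30 to 0.18, adjusted p = 0.868), -0.11 (95% interval -0.30 to 0.08, adjusted p = 0.674) and 0.0069 (95% interval -0.37 to 0.38, adjusted p = 0.992) in the same order of probes. With single arrays left out they ran from -0.19 (without posterior replicate 2) to 0.079 (without posterior replicate 1), from -0.16 (without anterior replicate 1) to -0.048 (without anterior replicate 2) and from -0.20 (without anterior replicate 2) to 0.22 (without anterior replicate 1). The anterior replicates differed by -0.42 in ILMN_1222167, replicate 2 minus replicate 1, while in the other 2 probes of the gene they differed by 0.074 and 0.12, so the probes of GRIA2 did not share a pattern over the arrays. The intervals leave room for a difference of up to 0.38 in either direction in ILMN_1222167 and of less in the other 2 probes.

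GRIA3, whose gene lies on the X chromosome, encodes an AMPA subunit found in Purkinje cells among others. Its probe ILMN_1251634 had a log2 signal of 10.59 and 10.47 on anterior replicates 1 and 2 and of 10.49 and 10.44 on posterior replicates 1 and 2. Its probe ILMN_2638066 had 8.60 and 8.70 in the anterior and 8.39 and 8.59 in the posterior lobe, and its probe ILMN_1238789 had 7.45 and 7.52 in the anterior and 7.24 and 7.36 in the posterior lobe. The lobes overlapped for ILMN_1251634, came within rounding of each other for ILMN_2638066 and were apart for ILMN_1238789.

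The differences of GRIA3 were -0.067 (standard error 0.09, adjusted p = 0.843), -0.15 (standard error 0.13, adjusted p = 0.721) and -0.18 (standard error 0.11, adjusted p = 0.606). With single arrays left out they ran from -0.12 (without anterior replicate 2) to -0.011 (without anterior replicate 1), from -0.25 (without posterior replicate 2) to -0.052 (without posterior replicate 1) and from -0.24 to -0.12 (without the same 2 arrays). Between replicates 1 and 2, which differed in XIST, the 3 probes of GRIA3 did not move one way: replicate 2 minus replicate 1 was -0.11 and -0.05 for ILMN_1251634, 0.10 and 0.20 for ILMN_2638066 and 0.07 and 0.12 for ILMN_1238789 in the anterior and the posterior lobe. The other probe of GRIA3, ILMN_1223636, was detected on anterior replicate 2 only. Its intensities were 121.6 and 118.2 in the anterior and 108 and 113.2 in the posterior lobe, and it was not tested.

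GRIA4 encodes the AMPA subunit with the fastest channels, found in granule neurons and Bergmann glia. Its probe ILMN_2663423 had a log2 signal of 8.46 and 8.95 on anterior replicates 1 and 2 and of 8.56 and 8.35 on posterior replicates 1 and 2. Anterior replicate 2 was again the highest array and posterior replicate 2 the lowest, as in 3 probes of GRIA1, but here anterior replicate 1 lay below posterior replicate 1. Its probe ILMN_1244887 had 7.95 and 8.04 in the anterior and 7.75 and 7.88 in the posterior lobe, with both posterior arrays below both anterior arrays.

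The differences of GRIA4 were -0.25 (standard error 0.19, 95% interval -0.73 to 0.22, adjusted p = 0.685) for ILMN_2663423 and -0.18 (standard error 0.12, 95% interval -0.46 to 0.11, adjusted p = 0.648) for ILMN_1244887. The first depended on single arrays: it was -0.0082 without anterior replicate 2, -0.15 without posterior replicate 2 and -0.50 (adjusted p = 0.0499) without anterior replicate 1, where 12.0% of all tested probes passed the adjusted p. The second was -0.11 without posterior replicate 1. The other probe of GRIA4, ILMN_1259062, was detected on no array, with intensities of 72.9 to 79.0.

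Over the 4 AMPA genes 11 of the 12 tested probes had a difference below 0, with a median of -0.18 and a range of -0.35 to 0.0069. The count was 12 without normalization and 10 after a shift of each array to a common 75th percentile. None of the 4 genes had a probe past the criterion of the study with all arrays and no covariate. GRIA1 ILMN_1248802 passed it without normalization, without a filter and with detection required on all 4 arrays. With a block for the replicate number 3 probes of GRIA1 passed it, as did 13.0% of all tested probes, but only 2 pairs exist. Without anterior replicate 1 the difference was -0.53 in GRIA1 ILMN_1248802 and -0.50 in GRIA4 ILMN_2663423.

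**Figure D1:**
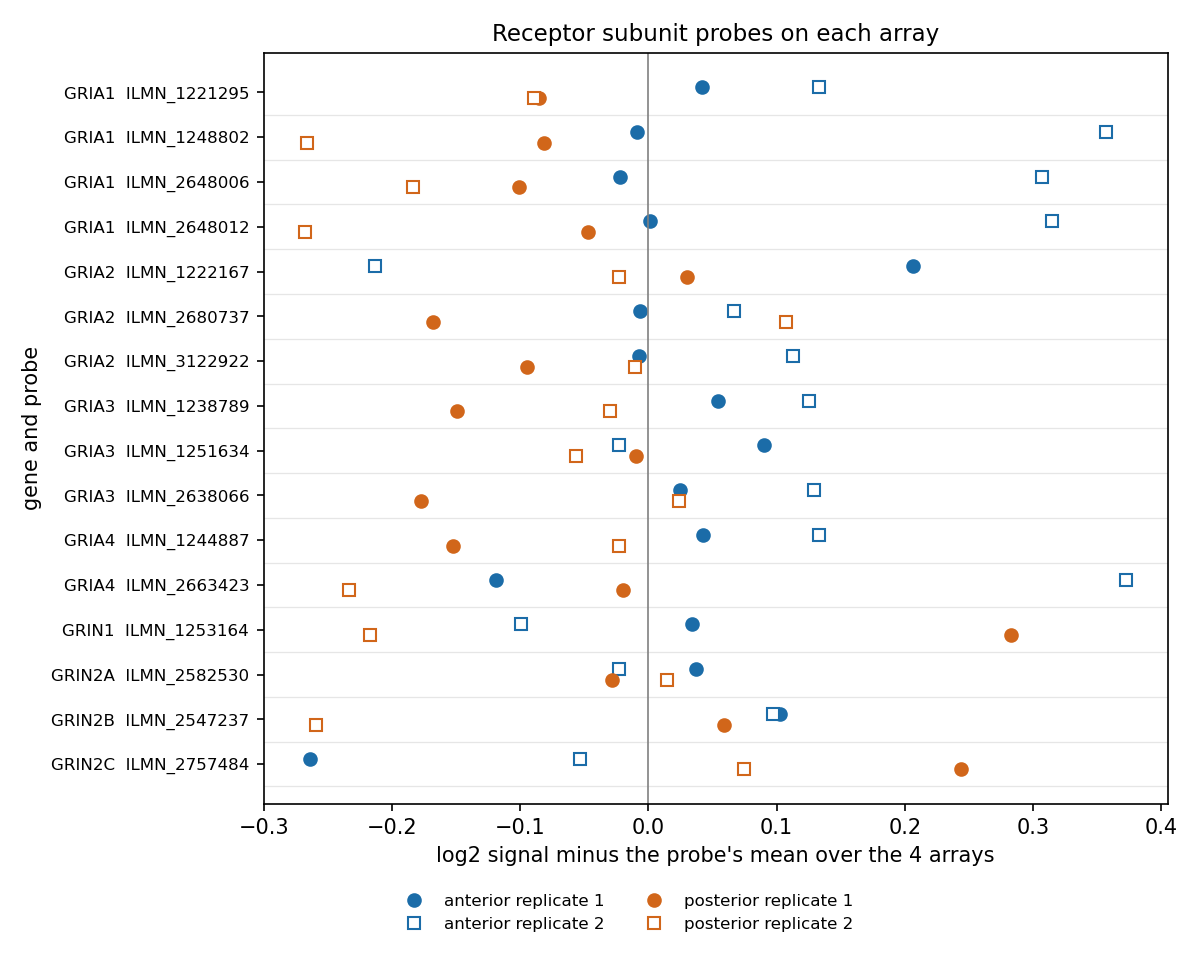
Log2 signal of the 16 tested probes of AMPA and NMDA receptor subunits on each array (horizontal axis), drawn as the distance from the probe's own mean over the 4 arrays, with anterior arrays in blue, posterior arrays in orange, replicate 1 as filled circles and replicate 2 as open squares. In 3 probes of GRIA1 and in GRIA4 ILMN_2663423 anterior replicate 2 stands apart at the high end, and in GRIN2C both posterior arrays lie above both anterior arrays.

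GRIN1 encodes the subunit that binds glycine and is part of every NMDA receptor. Its probe ILMN_1253164 had a log2 signal of 7.87 and 7.74 on anterior replicates 1 and 2 and of 8.12 and 7.62 on posterior replicates 1 and 2. Posterior replicate 1 was the highest array and posterior replicate 2 the lowest, so the posterior arrays enclosed the anterior ones. The means were 7.80 ± 0.09 (SD, n = 2 arrays) and 7.87 ± 0.35, and the difference of 0.065 (standard error 0.18, 95% interval -0.39 to 0.52, adjusted p = 0.932) was smaller than the gap of -0.50 between the posterior replicates. Leaving out posterior replicate 1 turned it to -0.19, and leaving out posterior replicate 2 raised it to 0.32. The other probe of GRIN1, ILMN_1216667, was detected on no array.

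GRIN2A encodes a glutamate-binding subunit that appears in granule neurons as they mature. Its probe ILMN_2582530 had a log2 signal of 7.60 and 7.54 on anterior replicates 1 and 2 and of 7.54 and 7.58 on posterior replicates 1 and 2. The 4 arrays lay within a narrow range and the lobes overlapped. The difference was -0.014 (standard error 0.10, 95% interval -0.27 to 0.24, adjusted p = 0.975) and turned to 0.015 without anterior replicate 1 and to 0.0074 without posterior replicate 1, and its other probe, ILMN_2623457, was detected on no array.

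GRIN2B encodes the glutamate-binding subunit that prevails in immature neurons. Its probe ILMN_2547237 had a log2 signal of 11.38 and 11.37 on anterior replicates 1 and 2 and of 11.33 and 11.02 on posterior replicates 1 and 2. The anterior arrays were nearly equal, posterior replicate 1 was close to them, and posterior replicate 2 was lower. The difference was -0.20 (standard error 0.12, 95% interval -0.50 to 0.10, adjusted p = 0.613), and leaving out posterior replicate 2 made it -0.041, while leaving out posterior replicate 1 made it -0.36 and past the criterion of the study, which 3.58% of all tested probes passed in that refit. Neither ILMN_2548201 nor ILMN_2617352, the other probes of GRIN2B, was detected on any array.

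GRIN2C encodes the glutamate-binding subunit typical of mature granule neurons of the cerebellum. The single probe of GRIN2C, ILMN_2757484, had intensities of 134.1 and 130.7 on anterior replicates 1 and 2 and of 178.4 and 160.2 on posterior replicates 1 and 2. These are close to the background: the detection p-value was 0.062 and 0.0267 on the anterior arrays and 0.0128 and 0.0235 on the posterior arrays, so that GRIN2C was detected on 1 of 2 anterior and on both posterior arrays. On the log2 scale the signal was 6.97 and 7.18 in the anterior and 7.48 and 7.31 in the posterior lobe, and the lobes did not overlap.

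GRIN2C had an anterior mean of 7.07 ± 0.15 (SD, n = 2 arrays) and a posterior mean of 7.39 ± 0.12. The difference of 0.32 (standard error 0.12, 95% interval 0.02 to 0.62, adjusted p = 0.470) passed the criterion of the study but not the adjusted p. Since anterior replicate 1 did not detect the probe, the size of the difference is uncertain, and it was 0.21 without that array and 0.54 with neqc background correction. The standard error over beads of this probe was 0.08 to 0.13 on each array, from 24 to 35 beads. GRIN2C stayed above 0 in the 8 alternatives that change its difference. In the 4 of these that leave out an array the sign could hardly turn, since the lobes did not overlap. GRIN2C passed the criterion in 7 of the 12 alternatives in which it could be tested. It did not pass without normalization, by the methods' t-test, without anterior replicate 1 or when either posterior array was left out, and it was not tested where detection on all 4 arrays or a detection p-value under 0.01 was required.

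GRIN2D encodes a glutamate-binding subunit known from the embryonic and early postnatal brain, and GRIN3A encodes a glycine-binding subunit that lowers the calcium flow of the receptor. The single probe of GRIN2D, ILMN_2710382, had intensities of 71.5 and 66.9 in the anterior and 70.9 and 60.8 in the posterior lobe, with detection p-values of 0.52 to 0.915. The single probe of GRIN3A, ILMN_1225231, had intensities of 72.6 and 62.8 in the anterior and 66.5 and 74.4 in the posterior lobe, with detection p-values of 0.45 to 0.722. Neither gene was detected on any array, and no fold change is given for them. GRIA4, GRIN1, GRIN2A and GRIN2B each had a probe that no array detected beside a detected one, so a dim probe alone does not show that a gene was silent.

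Over the NMDA genes the 4 tested probes had differences from -0.20 to 0.32 with a median of 0.026, and GRIN2C and GRIN2B stood at the ends. Over the 16 tested probes of both families the median gap between the replicates of a lobe, without its sign, was 0.12 in the anterior and 0.15 in the posterior lobe, against 0.14 and 0.092 over all tested probes. The median standard error of the difference was 0.12, against 0.11 over all tested probes.

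**Figure D2:**
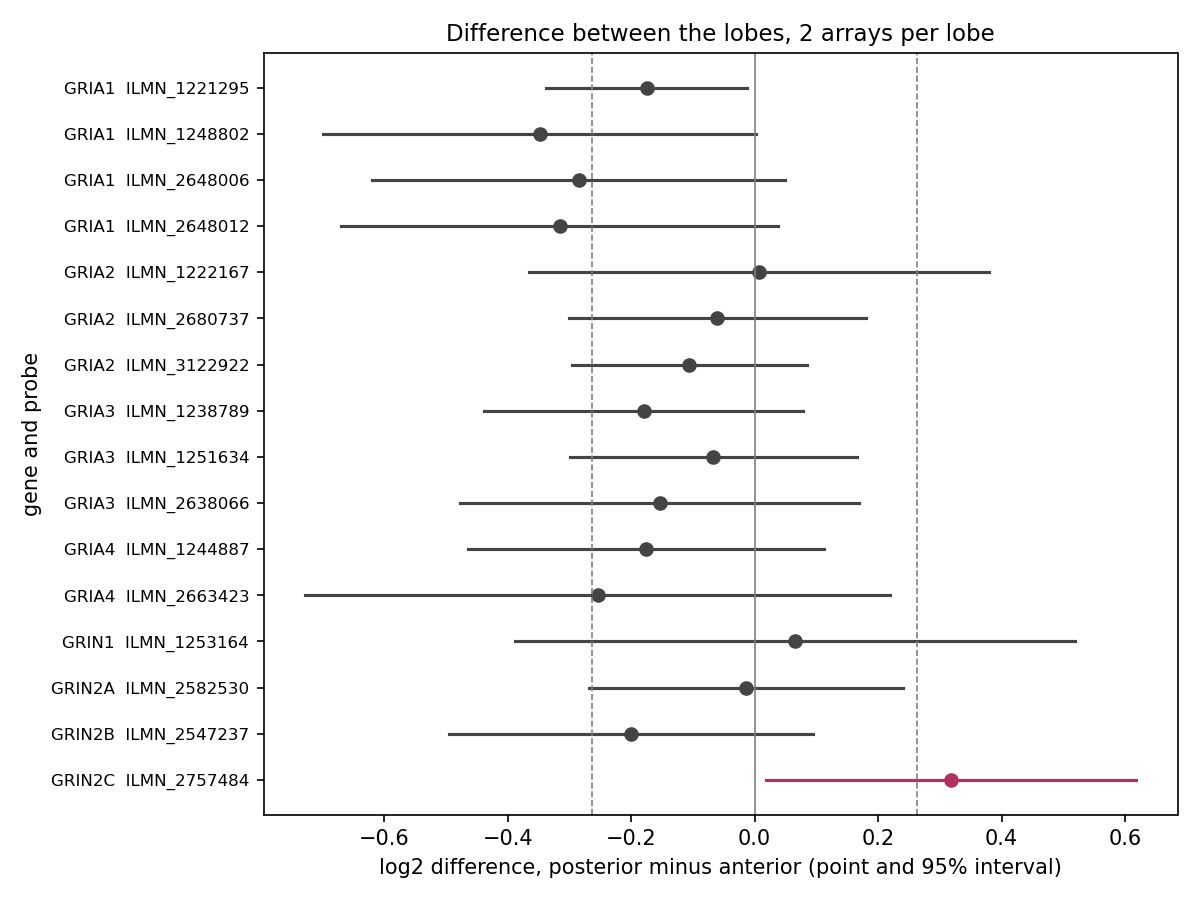
Log2 difference, posterior minus anterior, of the 16 tested probes of AMPA and NMDA receptor subunits (points) with 95% intervals from limma over 2 arrays per lobe (lines). The solid line marks 0 and the dashed lines a fold change of 1.2, and only GRIN2C, in red, passed the criterion of the study. All 4 points of GRIA1 lie below 0, and the interval of ILMN_1221295 alone among them ends below it.

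The proteins that assemble, anchor and regulate these receptors were taken from 5 lists with 63 genes, of which 58 had a probe and 46 a tested probe. By the criterion of the study 7 of the 46 were lower and 1 was higher in the posterior lobe, against 6.05% and 4.10% of all tested genes. A gene counted if any of its tested probes passed, and by probes 8 of 81 passed, against 8.29% of all tested probes. By the methods' t-test 2 of the 46 genes passed, CAMK2B and SLC6A9, against 4.37% of all tested genes. The split into 7 lower and 1 higher moved with the scaling and when single arrays were left out. After the shift to a common 75th percentile 5 of the 46 were lower and 3 higher, against 4.69% and 5.65% of all tested genes. The median difference over their 81 tested probes was -0.037, and none passed the adjusted p by limma with no covariate. At an unadjusted p under 0.05 were 10 probes, close to the 10.1% of all tested probes. With a block for the replicate number 3 of the 46 passed the adjusted p, NETO2, NPTX1 and SLC6A9, against 3.25% of all tested genes. Without anterior replicate 1, a fit with 1 anterior array, more genes passed the adjusted p, both among the partner genes and among all tested genes. The lists' medians were -0.052 for auxiliary proteins, -0.025 for scaffold proteins, -0.15 for secreted and surface organisers, -0.010 for editing and co-agonist genes and -0.054 for the other subunits. GSG1L, DLGAP1 and NETO2 also had tested probes that did not pass. Those of DLGAP1 had differences of -0.015 in its brightest probe, ILMN_2453312, and of -0.22 and -0.37. Those of NETO2 had differences of -0.10 and -0.21.

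Among 10 tested auxiliary proteins of AMPA receptors 1 passed, GSG1L, which slows the recovery of the channel from desensitization. Its probe ILMN_2625567 had a difference of -0.41 (standard error 0.11, adjusted p = 0.351), and the brightest probe of the list, GSG1L ILMN_2462901, had -0.17 (adjusted p = 0.584). ILMN_2625567 was close to the background, with intensities of 137.6 and 140.8 and a detection p-value of 0.0417 on both posterior arrays. Among 18 tested scaffold and anchoring proteins 3 were lower and 1 was higher. CAMK2B, a subunit of the kinase that phosphorylates GRIA1, had a difference of -0.29 (standard error 0.06, adjusted p = 0.236), DLGAP1 ILMN_2559232 had -0.38 (standard error 0.15, adjusted p = 0.491) and NETO2 ILMN_1235540, an auxiliary subunit of kainate receptors, had -0.46 (standard error 0.14, adjusted p = 0.386). DLG2, a scaffold that binds the GRIN2 subunits, was the one on the other side with 0.33 (standard error 0.11, adjusted p = 0.433). Without anterior replicate 2 the difference was -0.21 in DLGAP1, 0.20 in DLG2 and -0.30 in NETO2, and of these only NETO2 passed the criterion. CAMK2B did not pass without anterior replicate 1 (-0.25), NETO2 without posterior replicate 1 (-0.35), DLG2 without posterior replicate 2 (0.24), and GSG1L (-0.41 and -0.42) and DLGAP1 (-0.35 and -0.41) without posterior replicate 1 or 2. With neqc background correction GSG1L was at -0.68.

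Of 7 tested secreted and surface organisers NPTX1, a pentraxin that gathers AMPA receptors, was the one that passed. Its log2 signal was 8.91 and 9.39 on anterior replicates 1 and 2 and 8.31 and 8.69 on posterior replicates 1 and 2, a difference of -0.65 (standard error 0.21, adjusted p = 0.412). It was -0.40 without anterior replicate 2, and -0.47 and not past the criterion without posterior replicate 1. CBLN1, the brightest of the list, had -0.052. Of 5 tested genes of RNA editing and co-agonist supply 2 passed, and both handle co-agonists of the NMDA receptor. The tested probes of SRR, a co-agonist gene of the same list, did not pass, with differences of 0.065, 0.043 and -0.19. SLC6A9, the glycine transporter of glia, had a log2 signal of 12.39 and 12.37 in the anterior and 12.01 on both arrays of the posterior lobe, a difference of -0.37 (standard error 0.07, adjusted p = 0.183) that passed the criterion in 14 alternatives but not at 1.5-fold. The other 7 partner genes that passed did so in 9 to 12 of the 14, DLGAP1 in 9, DLG2 in 10, CAMK2B, GSG1L and DAO1 in 11, and NETO2 and NPTX1 in 12, and at 1.5-fold only NPTX1 passed. DAO1, the older name of the gene of D-amino acid oxidase, which degrades D-serine, had -0.50 (standard error 0.14, adjusted p = 0.357), and did not pass without posterior replicate 1 (-0.51) or posterior replicate 2 (-0.50). ADARB1, the enzyme that edits the RNA of GRIA2, had -0.0095 in its brightest probe (adjusted p = 0.972). None of the 6 tested genes of other ionotropic glutamate receptor subunits passed.

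Markers of several cell types moved with the lobe, and their part in the differences of the receptor genes was not tested. Of 9 tested oligodendrocyte markers 8 were lower in the posterior lobe by the criterion of the study, with MAG, MAL and MOBP past the adjusted p. All 20 tested probes of the list had both posterior arrays below both anterior arrays, and their median difference was -1.05. The summed signal of the list was 16.67 and 16.66 on anterior replicates 1 and 2 and 16.08 and 15.98 on posterior replicates 1 and 2 on the log2 scale, MBP had the brightest probe, which is no measure of its level against other genes, and OLIG2 was not detected. Of 7 meningeal markers 4 were higher in the posterior lobe by the criterion, with DCN and PTGDS past the adjusted p and a median of 0.49. The summed signal of that list was 13.98 and 14.16 in the anterior and 14.68 and 14.93 in the posterior lobe. IGF2 had its brightest probe. Of 6 unipolar brush cell markers 2 were higher, OTX2 past the adjusted p and CALB2, with the brightest probe, by the criterion, with a summed signal of 13.73 and 13.85 against 14.48 and 14.32 and a median of 0.13.

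No marker of the other cell types listed passed the adjusted p, which only 0.106% of all tested probes passed. Of 7 tested granule neuron markers 1 passed the criterion of the study, ZIC2, which was higher. The median over the probes of that list was 0.040, NEUROD2 had the brightest probe, and CBLN3 and FAT2 were not detected. GABRA6, a granule neuron marker that appears late, was detected on 2 of the 4 arrays. None of 5 tested Purkinje cell markers (ITPR1 brightest, CALB1, CAR8 and PCP4 not detected) and 9 of Bergmann glia and astrocytes (SLC1A3 brightest) passed, with medians of -0.12 and -0.057. Neither did any of 5 tested markers of proliferating progenitors (MKI67 brightest, ATOH1, GLI1 and MYCN not detected) and 6 of microglia (CX3CR1 brightest), with medians of 0.097 and 0.0050. Of 5 inhibitory interneuron, 4 oligodendrocyte precursor and 5 endothelial markers tested, 1 each was higher by the criterion, PTF1A, PDGFRA and CDH5. PVALB, PTPRZ1 and CLDN5 were the brightest, GAD2, PAX2 and SLC6A5 were not detected, and the medians were -0.018, -0.17 and 0.056. Apart from PDGFRA the 4 tested probes of the precursor list had differences of -0.24 to -0.14, each with both posterior arrays below both anterior arrays, and none passed the criterion. Of 3 tested choroid plexus markers CLIC6 was lower by the criterion. FOLR1 and KL were detected on 1 array at most per probe, the median was -0.89, and TTR had the brightest probe. Of the forebrain markers TBR1 was tested, at a difference of -0.27, and EMX1 and NEUROD6 were not detected.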

How the data were processed

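The authors deposited, per the file headers from GenomeStudio 1.9.0 with its normalization off, the mean intensity of the beads of each probe, the SD of that intensity and the number of beads for 4 arrays. The deposited detection score is the fraction left when the detection p-value is taken from 1. Columns carry sample numbers, which the labels tie to the samples, and 16 further columns were not used.

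In R 4.3.3, quantile normalization was applied to the intensities, values under 1 were set to 1, and log2 was taken. Each probe detected on at least 2 arrays was fitted with limma 3.58.1 (lmFit, then eBayes with an intensity trend), posterior minus anterior, with all 4 arrays and no covariate. The methods give a threshold of 1, taken here as the floor under which intensities were set to 1. They also name the log base and the limits of fold and p, but no normalization. Whether p was adjusted is not said. The study also gives a fold of 1.5, which was an alternative. The standard error over beads is the bead SD over the square root of the bead number, divided by the intensity and brought to the log2 scale. Summed signals of marker lists add the linear normalized signals of tested probes.

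The members and the gene lists were chosen with earlier results of these data known. Named are all probes of the subunits; of the partner lists, genes past a threshold and the brightest gene; of the marker lists, the brightest gene, genes past the adjusted p and defining markers not detected; and the 3 probes of other genes nearest in pattern to the subunit probe with the lowest p among those detected on all arrays. XIST, EIF2S3Y, DDX3Y, GABRA6, ZIC2, PTF1A, PDGFRA, CDH5 and CLIC6 were chosen after their values were seen. A few genes that this rule names are not reported here. Gene names are those of the array. Of 163 genes on the lists 153 matched by symbol and 5 by an older name in the RefSeq table of GRCm38.p6, used only for names, and Grid1, Cnih2, Shisa7, Syndig1 and Homer3 did not match.

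The alternatives were neqc background correction (offset 16), cyclic loess, a common 75th percentile or no normalization in place of quantiles; no filter, detection on all 4 arrays or a detection p under 0.01; the methods' t-test (equal variance), named for comparing groups and not for the arrays, or eBayes with no trend; a block for the replicate number; a fold of 1.5; and each array left out.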

Additional observations from a re-analysis of the deposited data

How the results depend on the processing

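The direction of 12 of the 16 subunit probes and of all 8 partner probes past the study criterion was the same under the 8 of 14 alternatives that change a difference. For these partner probes, and for subunit probes whose lobes did not overlap, leaving out an array could hardly turn the direction. GRIA2 ILMN_1222167 turned to -0.013 without normalization and ranged from -0.20 to 0.22 without single arrays. GRIA2 ILMN_2680737 turned to 0.0052 with a shift to a common 75th percentile and ranged from -0.19 to 0.079 without single arrays. GRIN2A ILMN_2582530 turned to 0.00077 without normalization and 0.034 with the shift, and ranged from -0.045 to 0.015 without single arrays, and GRIN1 ILMN_1253164 ranged from -0.19 to 0.32. Past the study criterion were 1802 probes, against 741 by the methods' t-test and 389 at 1.5-fold, and 766 to 4677 without single arrays: 4677 without anterior replicate 1, 766 without posterior replicate 1 and 811 without posterior replicate 2. The shift made 53.5% of these probes higher in the posterior lobe, against 39.7%, and partner genes 5 lower and 3 higher, against 7 and 1. Past the adjusted p were 23 probes, against 123 without normalization, 73 without a filter, 13 without the trend, 0 by the methods' t-test, and 0 to 2538 without single arrays: 2538 if anterior replicate 1 was left out, 221 for anterior replicate 2 and 0 for each of the posterior arrays. Subunit genes past the criterion were 1 of 8 tested, beside 10.1% of all tested genes. They were 2 without a filter (GRIA1 and GRIN2C), beside 7.1% of all genes. They were 0 with a detection p under 0.01 (10.4% of all tested genes), by the methods' t-test (4.37%) and at 1.5-fold. The count and the genes behind it also moved when single arrays were left out. The count of 1 stood for GRIA1 without normalization and with detection on all 4 arrays, and for GRIN2B without posterior replicate 1. By the methods' t-test 0 of the 16 subunit probes had an unadjusted p under 0.05. Partner genes past the criterion were 8, against 2 by the methods' t-test, 1 at 1.5-fold, and 3 to 18 without single arrays: 18 without anterior replicate 1, 3 without posterior replicate 1, 13 without anterior replicate 2 and 5 without posterior replicate 2. With the replicate block 2818 probes passed the criterion and 588 the adjusted p, with 2 subunit genes (GRIA1 in 3 probes and GRIN2C) and 12 partner genes past the criterion, and with NETO2, NPTX1 and SLC6A9 past the adjusted p (0.0268, 0.0223 and 0.0387); over tested probes replicate 1 minus 2 in the anterior correlated with that in the posterior lobe (r = 0.458), but only 2 pairs exist and the labels name no shared animal. The cause of these changes was not tested; fits without an array rest on fewer samples and take the spread of a lone array from the pair of the other lobe. Signals near background, as in GRIN2C, limit what can be told.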
